A study of Homo sapiens with 2 samples.

Results

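PPP3CA, NCAM2, EFNA5, NAALADL2 and IMMP2L are 5 long protein-coding genes that each held at least 6 deletion sites in a list made by immunoprecipitation of the splicing factor SF3A1. Described here are all 37 listed sites inside the gene bodies that RefSeq annotates on GRCh38, out of 2960 sites in the list. The genes were chosen by the number of listed sites in their bodies, so their site numbers and densities are given as a description and carry no test. The list comes from crosslinking and immunoprecipitation (CLIP) with 2 µg of an antibody against SF3A1 in C4-2B cells, which derive from the prostate cancer line LNCaP, in a derivative made ready for CRISPR interference. The labels name 2 libraries of 1 group, harvested 48 h after seeding and crosslinked with 254 nm light at 400 mJ/cm2. They name no control group, and the deposited list pools both libraries, so no value has an error between replicates.

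SF3A1 is a subunit of the SF3A complex, which joins U2 snRNP, the particle that recognises the branch point near the 3′ end of an intron. Genes such as these consist mostly of intron, so their unspliced transcripts offer long stretches where a splicing factor can touch RNA outside coding sequence. During reverse transcription the enzyme can skip a base that carries a crosslinked peptide, and the skipped base appears as a deletion in a tag, that is, in a sequenced read after duplicates are collapsed. A site is a position where such deletions passed the authors' false discovery rate of 10 percent. The deleted share of a site is the count of tags with the deletion over the count of all tags across it. Without a control library, a deletion made during reverse transcription cannot be told apart from a base already missing in the DNA of the line.

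The 5 genes have unrelated products. PPP3CA encodes a catalytic subunit of calcineurin, the calcium-dependent phosphatase that activates transcription factors such as NFATC1. NCAM2 and EFNA5 act at the cell surface, NCAM2 as an adhesion molecule of the immunoglobulin superfamily and EFNA5 as ephrin-A5, a membrane-anchored ligand of Eph receptors. NAALADL2 encodes a protein related by sequence to the glutamate carboxypeptidase family, whose best known member in the prostate is FOLH1, or prostate-specific membrane antigen. IMMP2L encodes a subunit of the inner membrane peptidase of mitochondria.

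Promoter sequences show a place where transcription of 4 of the genes is annotated to begin. In NCAM2 and NAALADL2 this start lies inside the annotated gene body, so it is not the start of their longest annotated extent. They come from RefSeq on GRCh38.p14, where 4 of the 5 genes matched an entry, and each runs from 250 bases before the start to 50 after it on the strand of the gene. The windows are chr21:21146912-21147211 on the plus strand for NCAM2, chr5:107670888-107671187 on the minus strand for EFNA5, chr3:174859084-174859383 on the plus strand for NAALADL2 and chr7:111562443-111562742 on the minus strand for IMMP2L. Capitals mark each CG dinucleotide, which was searched as the letters CG and reads the same on both strands.
NCAM2: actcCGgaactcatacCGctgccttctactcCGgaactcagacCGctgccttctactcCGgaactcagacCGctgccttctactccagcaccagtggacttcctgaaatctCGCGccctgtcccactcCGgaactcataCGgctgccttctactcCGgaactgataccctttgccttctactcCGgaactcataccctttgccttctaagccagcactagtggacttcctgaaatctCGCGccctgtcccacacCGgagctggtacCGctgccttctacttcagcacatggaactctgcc
EFNA5: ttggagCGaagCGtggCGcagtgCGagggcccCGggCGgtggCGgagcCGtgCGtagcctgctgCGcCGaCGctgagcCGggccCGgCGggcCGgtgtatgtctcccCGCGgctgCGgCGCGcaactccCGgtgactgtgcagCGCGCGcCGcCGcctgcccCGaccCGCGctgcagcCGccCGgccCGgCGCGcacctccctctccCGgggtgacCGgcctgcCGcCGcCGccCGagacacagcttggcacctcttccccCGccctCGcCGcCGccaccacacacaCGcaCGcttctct
NAALADL2: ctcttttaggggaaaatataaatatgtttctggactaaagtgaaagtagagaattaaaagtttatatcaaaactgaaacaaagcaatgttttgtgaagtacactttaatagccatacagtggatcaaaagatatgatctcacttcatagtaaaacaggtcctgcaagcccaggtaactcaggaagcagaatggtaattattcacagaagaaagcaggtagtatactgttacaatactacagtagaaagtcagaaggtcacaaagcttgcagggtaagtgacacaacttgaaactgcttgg
IMMP2L: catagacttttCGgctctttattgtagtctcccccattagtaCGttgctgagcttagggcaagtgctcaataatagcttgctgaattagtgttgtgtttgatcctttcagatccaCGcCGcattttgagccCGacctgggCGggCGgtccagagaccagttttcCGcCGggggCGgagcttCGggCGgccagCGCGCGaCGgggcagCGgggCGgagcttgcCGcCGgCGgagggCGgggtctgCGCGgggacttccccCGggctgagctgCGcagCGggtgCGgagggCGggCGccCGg

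The windows differ widely in composition. The EFNA5 window held 47 CG dinucleotides and the IMMP2L window 31, more than 97.6% and 79.3% of the 35116 windows in the RefSeq table. The NCAM2 window held 16, close to the median of 14, and the NAALADL2 window held none. Both of these lie inside the gene body, and the sequence at the 5′ end of the body was not examined for either gene. No site of the 5 genes fell inside these windows, against 0.0570% of all windows that held a listed site.

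The sites were unevenly shared and unevenly dense. PPP3CA (chromosome 4, 101023418 to 101347526, 324 kb) held 10 sites. NCAM2 (chromosome 21, 20998409 to 21543329, 545 kb), EFNA5 (chromosome 5, 107376894 to 107670937, 294 kb) and NAALADL2 (chromosome 3, 174440982 to 175810548, 1370 kb) held 7 each. IMMP2L (chromosome 7, 110662644 to 111562492, 900 kb) held 6. For comparison, 10.1% of 19862 nuclear protein-coding gene bodies held any site, 0.116% held 5 or more and 0.0453% held 6 or more, and these counts are what the choice of genes rests on.

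Per length, PPP3CA had the highest value of the 5 over all listed sites. PPP3CA held 3.09 sites per 100 kb (95% Poisson interval 1.48 to 5.67), or 1 per 32.4 kb. EFNA5 followed with 2.38 (0.957 to 4.90), NCAM2 with 1.28 (0.516 to 2.65), IMMP2L with 0.667 (0.245 to 1.45) and NAALADL2 with 0.511 (0.205 to 1.05). The intervals cover counting error of sites alone and are given as a description, since the site numbers behind these densities chose the genes. The order depends on lightly covered sites: when sites at or below the list's median of 50 deleted tags were left out, PPP3CA kept 3 sites, at 0.926 per 100 kb, against 1.36 in EFNA5, 1.10 in NCAM2, 0.445 in IMMP2L and 0.365 in NAALADL2.

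**Figure D1:**
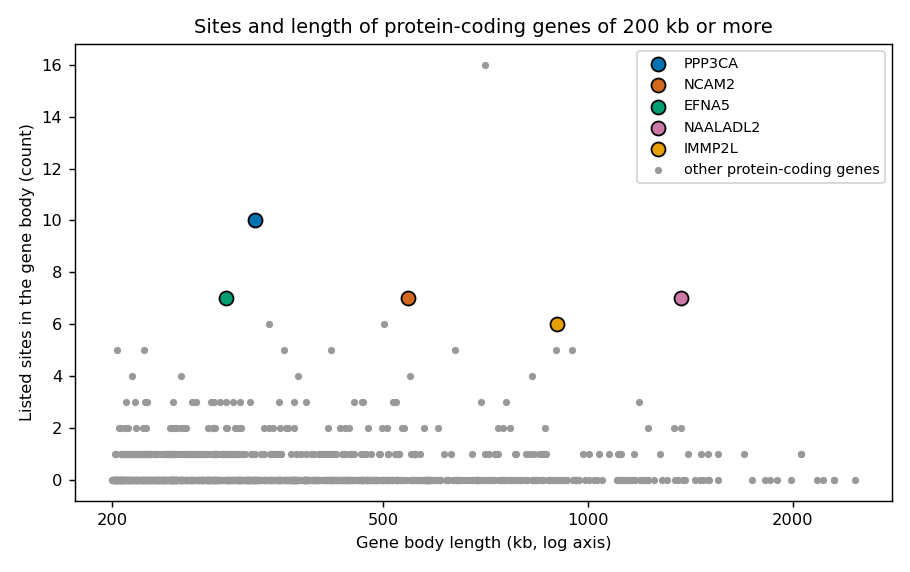
Number of listed sites in the gene body (vertical axis) against gene body length in kb (log axis) for the 1399 protein-coding genes of 200 kb or more. Coloured points are the 5 genes, at 6 to 10 sites, and grey points are the other 1394, of which 1086 held no site.

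Most long genes held no site at all. Of the 1394 other protein-coding genes of 200 kb or more, 308 held a site, 220 of them a single one, and together they held 0.0809 sites per 100 kb. Over all 1399 long genes, 22.4% held a site. No gene of this length was denser than PPP3CA. Those denser than EFNA5 numbered 2, namely PPP3CA and GRB10, while 13 were denser than NCAM2, 52 than IMMP2L and 70 than NAALADL2.

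The genes named here as nearest in length held fewer sites than the gene they were set beside. Next in length to PPP3CA, CTIF held 1 site and AKAP19 0. Next to NCAM2, DOCK1, a guanine nucleotide exchange factor for Rac, held 4 and MYT1L, a neuronal zinc finger factor, 0. Beside EFNA5, PLCH1 held 1 and EYA2 held 0, and beside NAALADL2, the very long gene IL1RAPL1 held 2. IMMP2L was matched most closely by one of its neighbours in length: NLGN1, which encodes the synaptic adhesion protein neuroligin-1, held 5 sites, and FRMPD4 held 0.

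The genes most like these by site number were those with 5 or more sites. ANK3, which encodes ankyrin-G, held 16 sites at 2.26 per 100 kb. The corepressor gene CTBP2, LIMCH1 and the liprin gene PPFIA2 held 6 each, at 3.37, 1.76 and 1.20 per 100 kb. Genes with 5 sites included the hnRNP gene HNRNPU, the spliceosome-associated SRRM2, AP3D1, SBNO2, NFIX, ARFGEF3, GRB10, ANKRD11, the ubiquitin ligase gene NEDD4L, ZNF385B, AGAP1, NLGN1 and EPHA6. Their densities ran between 35.1 per 100 kb in HNRNPU, which is 14.2 kb long, and 0.528 in EPHA6, which is 947 kb long. NAALADL2, at 0.511, was the least dense gene of the whole group.

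All sites of a gene lay on 1 strand. The 10 sites of PPP3CA, the 7 of EFNA5 and the 6 of IMMP2L were on the minus strand, and the 7 of NCAM2 and the 7 of NAALADL2 on the plus strand. In the 4 genes whose strand RefSeq's promoter table gives, 27 of 27 sites lay on the strand of the gene (95% Clopper-Pearson interval 87.2 to 100). Elsewhere the same was nearly as frequent: among 1919 sites in a single protein-coding gene of known strand outside the 5, 96.6% lay on the strand of the gene. A site on the strand of the gene is one that its own transcript could carry.

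**Figure D2:**
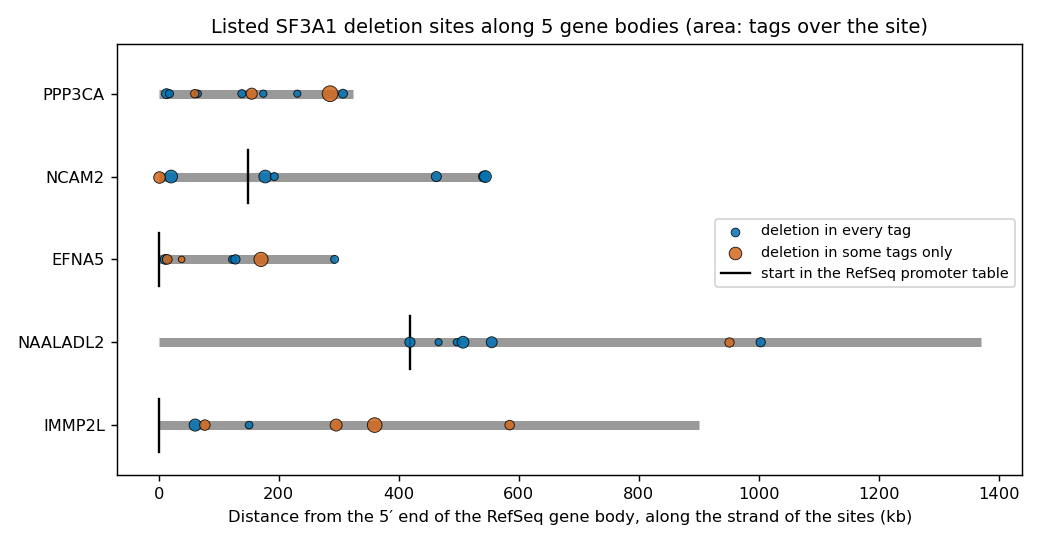
The 37 sites along the 5 gene bodies (grey bars), in kb from the 5′ end on the strand of the sites. Circle area grows with the tags over the site, blue circles have the deletion in every tag and orange ones in some tags only, and black ticks mark the starts in the RefSeq promoter table. Sites of NCAM2 reach both ends, those of NAALADL2 begin at the tick.

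Sites of PPP3CA ran along most of its body. From the 5′ end, the first at 101334320 (64 of 64 tags deleted) and the second at 101329404 (36 of 36) lay 13.2 and 18.1 kb into the gene. Next came 101287188 (38 of 39 tags) and 101282276 (26 of 26), 4912 nt apart. The middle of the gene held 101208800 (35 of 35), 101192381 (84 of 86), 101173034 (23 of 23) and 101116424 (22 of 22). These 8 sites had between 22 and 86 tags each. The best covered site of PPP3CA and of all 37, 101061866, had 185 of 194 tags deleted and held 33.9% of the tags over the sites of the gene, and the last, 101040359 (47 of 47), lay 16.9 kb before the 3′ end. Sites spanned 90.7% of the body. The microRNA gene MIR1255A lies between the first and the second site, 898 nt from the nearer one, and MIR8066 lies 31995 nt from the nearest, so neither held a site.

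NCAM2 carried sites at both extremes of its annotated body. Its first site, 20999728 (94 of 95 tags deleted), lay 1319 nt from the 5′ end and its last, 21542797 (100 of 100), 532 nt from the 3′ end. A second site near the 3′ end, 21540103 (76 of 76), lay 2694 nt from the last, the shortest distance between any neighbours in the 5 genes. Between the ends stood 21019274 (121 of 121), 21176041 (118 of 118), 21191169 (33 of 33) and 21461035 (65 of 65). The start in the promoter table, at 21147162, lies inside the gene body. The sites at 20999728 and 21019274 lay 147434 and 127888 nt before that start, on the strand of the gene, and so within the part that only longer annotated transcripts can include. The other 5 sites lay 28879 nt or more after it.

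EFNA5 had its sites in 2 loose groups and at the very end. The first group consisted of 107659840 (62 of 62 tags deleted), 107656397 (56 of 59) and 107632501 (14 of 15), 11.1 to 38.4 kb from the 5′ end. The second consisted of 107547878 (31 of 31) and 107543011 (54 of 54), 4867 nt apart, with 107500340 (153 of 154) beyond it. The last site, 107377768 (33 of 33), lay 874 nt before the 3′ end of the gene, after a stretch of 122.6 kb without a listed site. EFNA5 had the least covered site of all 37, with 15 tags.

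NAALADL2 held its sites in the middle of its annotated body. Its first site, 174859615 (69 of 69 tags deleted), lay 418633 nt into the annotated body but just 281 nt after the start in the promoter table, at 174859334. Another 4 sites followed within 136515 nt of that start: 174907362 (22 of 22), 174937785 (25 of 25), 174948042 (100 of 100) and 174995849 (82 of 82). After a stretch of 395.8 kb, the longest between neighbours in the 5 genes, came 175391620 (52 of 53) and 175443855 (52 of 52). The last 366.7 kb of the gene held none. Counted from that start, the density of NAALADL2 was 0.736 sites per 100 kb instead of 0.511. Of the 14 annotated genes that overlap its body, among them MIR4789 and the antisense transcripts NAALADL2-AS1, NAALADL2-AS2 and NAALADL2-AS3, none held a site.

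IMMP2L held its sites mainly in the part nearer its 5′ end. These were 111501521 (105 of 105 tags deleted), 111485380 (73 of 74), 111411755 (29 of 29), 111266722 (102 of 103) and 111202524 (164 of 166). The remaining site, 110977739, had 13 of 57 tags deleted, and the last 315.1 kb of the gene held none. LRRN3, a leucine-rich repeat gene on the opposite strand inside IMMP2L, held no site. The site at 111411755 also fell in the 562 nt pseudogene LOC100420226, whose sequence may share reads with other loci, so its assignment is uncertain. The site at 111202524 also fell in the long noncoding RNA gene LOC124901725. No other site of the 5 genes lay in another annotated gene.

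Over the 5 genes, 25 of 37 sites lay in the first 50% of the gene body (67.6%, 95% Clopper-Pearson interval 50.2 to 82.0). The counts were 6 of 10 in PPP3CA, 4 of 7 in NCAM2, 5 of 7 in EFNA5, 5 of 7 in NAALADL2 and 5 of 6 in IMMP2L. Other protein-coding genes of 200 kb or more had 58.1% of 432 sites in that part (53.3 to 62.8), and protein-coding genes of all lengths outside the 5 had 49.0% of 2301 (47.0 to 51.1). The interval of the 5 genes includes the value of the other long genes. That interval treats the 37 sites as independent, although sites of the same gene are no replicates. It therefore cannot decide whether the 5 genes differ from the other long genes, and such a difference was not tested.

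The surroundings of the gene bodies differed. Stretches as long as the gene itself on both sides held no site on either strand for PPP3CA and NCAM2. EFNA5 had 1 site in its upstream stretch, on its own strand in the body of FBXL17, and IMMP2L had 1, on the opposite strand in DOCK4. NAALADL2 had 5 sites on its own strand upstream, all inside its neighbour NLGN1, and 3 on the opposite strand downstream, inside TBL1XR1. Every site in these stretches thus lay in the body of another gene.

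Neighbouring sites stood far apart. Over the 32 pairs of neighbours the median distance was 45.2 kb (interquartile range 16.3 to 75.0), against 56.4 kb (22.1 to 119.6) over 163 pairs in other protein-coding genes of 200 kb or more. Under 10 kb lay 5 of the 32 pairs, 2 in PPP3CA, 2 in EFNA5 and 1 in NCAM2, or 15.6%, against 11.0% of pairs in the other long genes. Distances shrink as a body of given length holds more sites, and site number chose the 5 genes. Of the other long genes, 85 held 2 to 5 sites and 3 held 6 or more, so both comparisons are a description only. The median was 21.5 kb in PPP3CA, 33.3 kb in EFNA5, 47.8 kb in NAALADL2, 49.3 kb in NCAM2 and 73.6 kb in IMMP2L. Had the sites been placed at equal distances, they would have stood 29.5, 36.8, 171.2, 68.1 and 128.5 kb apart in the same order of genes. The median of NAALADL2 was 0.279 of its even distance, the lowest ratio, and that of EFNA5 was 0.906, the highest. The even distance of NAALADL2 counts its whole annotated body, including the 418.6 kb before its first site. No chance placement was drawn, so a low ratio does not by itself show clustering.

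The position names also carry an index that rises along each chromosome and strand. The sources used here do not say what it counts. If it numbers all positions with deletions, a step of 1 between neighbours means that no other such position lay between them. A step of 1 occurred in 15 of 32 pairs in the 5 genes (46.9%, 95% Clopper-Pearson interval 29.1 to 65.3), against 50.3% of pairs in other protein-coding genes of 200 kb or more. In NAALADL2, 5 of 6 pairs had it, and the 5 sites next to the listed start carried the index numbers 258 to 262 without a break. In PPP3CA 4 of 9 pairs had it, in EFNA5 3 of 6, in IMMP2L 2 of 5 and in NCAM2 1 of 6. Between the first and the last site of each gene the index covered 95 numbers in all, of which 58 belong to no listed site. The largest step, of 10, lay between the IMMP2L sites at 111266722 and 111411755.

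**Figure D3:**
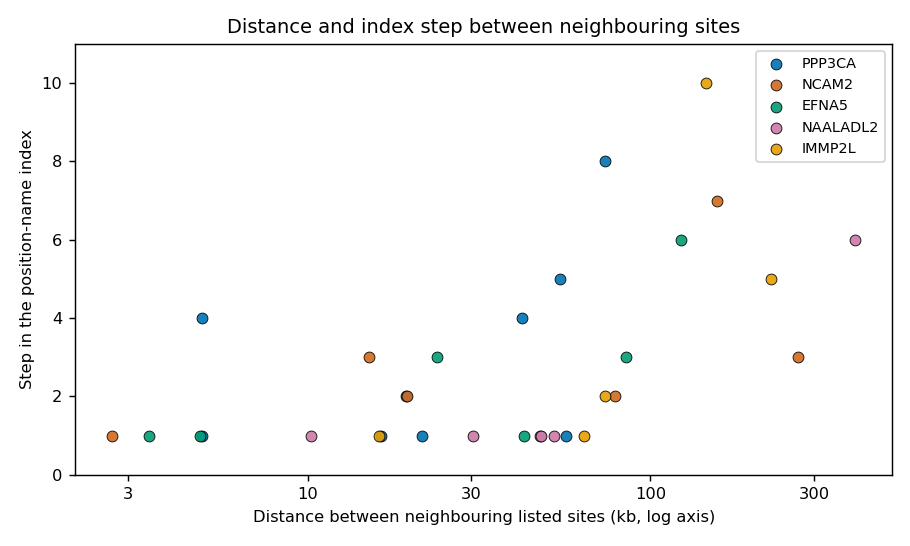
Step in the index of the position names (vertical axis) against the distance in kb (log axis) for the 32 pairs of neighbouring sites, coloured by gene. Steps of 1 occur at distances from 2.694 kb in NCAM2 to 64.2 kb in IMMP2L, and the longest distance, 395.8 kb in NAALADL2, has a step of 6.

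Coverage was that of ordinary sites in the list. The 37 sites had a median of 59 tags (lowest 15, highest 194), against a median of 52 over 2534 sites in protein-coding bodies outside the 5 genes and 54 over the whole list. Medians were highest in NCAM2, with 95 tags (33 to 121), and in IMMP2L, with 88.5 (29 to 166). EFNA5 had 54 (15 to 154), NAALADL2 53 (22 to 100) and PPP3CA 37.5 (22 to 194). The gene with the most sites thus had the lowest median coverage, and the ranges of all 5 genes overlap. In total 2525 tags covered the sites, 608 of them in NCAM2, 572 in PPP3CA, 534 in IMMP2L, 408 in EFNA5 and 403 in NAALADL2.

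**Figure D4:**
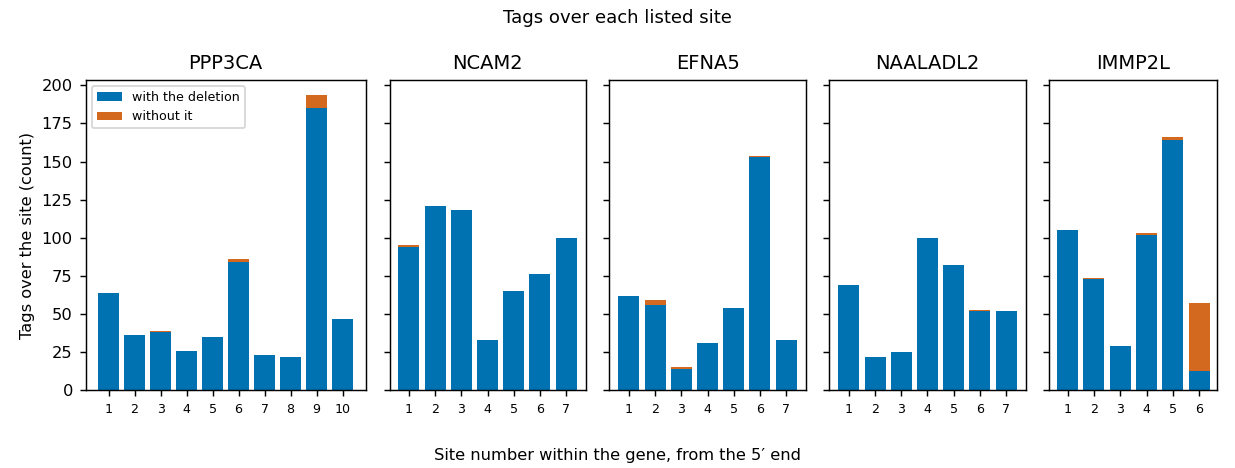
Count of tags over each of the 37 sites, in order from the 5′ end within each gene, divided into tags with the deletion (blue) and without it (orange). The sixth site of IMMP2L stands out with 44 of 57 tags without the deletion, and the ninth of PPP3CA has the most tags, 194.

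Nearly every tag carried the deletion. It was present in every tag at 25 of the 37 sites (67.6%, 95% Clopper-Pearson interval 50.2 to 82.0), where 75.8% of the whole list and 77.2% (73.2 to 80.9) of 474 sites in other protein-coding genes of 200 kb or more had it in every tag. The interval of the 5 genes includes both values. By gene, the deletion was complete at 7 of 10 sites in PPP3CA, 6 of 7 in NCAM2, 4 of 7 in EFNA5, 6 of 7 in NAALADL2 and 2 of 6 in IMMP2L (33.3%, 4.33 to 77.7). With so few sites a gene, the intervals of all 5 overlap.

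At the 12 incomplete sites few tags lacked the deletion. Exactly 1 tag lacked it at 7 of them and 2 or 3 tags at another 3. The 2 exceptions were the best covered PPP3CA site, 101061866, where 9 of 194 tags lacked it (deleted share 95.4%, 91.4 to 97.9), and the IMMP2L site at 110977739. The incomplete sites were better covered than the complete ones, with a median of 80 tags against 52. Whether coverage accounts for that split was not tested.

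The IMMP2L site at 110977739 was the single one of the 37 with a share under 90%. Such a share occurred at 4.01% of the sites in other protein-coding genes of 200 kb or more, 5.88% of all protein-coding sites outside the 5 genes and 7.5% of the whole list. Its share was 22.8% of 57 tags (95% Clopper-Pearson interval 12.7 to 35.8). Its 13 deleted tags equal the lowest number of any listed site, so it stood at the edge of the list by that count. It also accounted for 44 of the 67 undeleted tags of the 5 genes. The other IMMP2L sites had shares of 98.6% to 100%, and their intervals do not overlap that of 110977739.

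Summed over tags, the deleted share was 97.3% in the 5 genes (2458 of 2525 tags, 95% interval 96.6 to 97.9), against 97.0% (96.8 to 97.2) in the other protein-coding genes of 200 kb or more and 92.0% (91.9 to 92.2) over all protein-coding sites outside the 5. By gene it was 99.8% in NCAM2 (99.1 to 100), 99.8% in NAALADL2 (98.6 to 100), 98.8% in EFNA5 (97.2 to 99.6), 97.9% in PPP3CA (96.4 to 98.9) and 91.0% in IMMP2L (88.3 to 93.3). The interval of IMMP2L lay below those of the other 4 genes, but these intervals count tags and leave out the spread between sites. Of the 48 undeleted tags of IMMP2L, 44 came from 1 site. Without 110977739, its own share was 99.2% (473 of 477 tags, 97.9 to 99.8), above the values of PPP3CA and EFNA5, and the share over the 5 genes was 99.1%. The mean over sites, each weighted equally, was 97.1% ± 12.7 (SD over 37 sites) in the 5 genes and 98.1% ± 8.95 (SD over 474 sites) in the other long genes. Over all protein-coding sites outside the 5 it was 96.9% ± 12.3 (SD over 2534 sites), close to that of the 5 genes. Sites there had up to 2630 tags, against 194 in the 5 genes, and the sum over tags weights such sites most.

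ANK3 and the noncoding MIR99AHG, which are also long and hold many sites, give a scale for these shares. The deletion was complete at 10 of 16 sites in ANK3 (62.5%, 35.4 to 84.8) and 19 of 25 in MIR99AHG (76.0%, 54.9 to 90.6), both inside the interval of the 5 genes. Summed over tags the share was 97.8% in ANK3 (96.9 to 98.5) and 53.4% in MIR99AHG (51.8 to 55.0), where a single site had 1833 tags. The lowest share of a site in MIR99AHG was 6.98%. With each site weighted equally, the mean was 94.3% ± 19.5 (SD over 25 sites) in MIR99AHG and 97.7% ± 4.09 (SD over 16 sites) in ANK3.

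Relatives of the 5 genes were surveyed through lists of their families and pathways, with the 10.1% of all protein-coding genes as the background. Of 17 calcineurin pathway genes 4 held a site: CABIN1, a calcineurin-binding inhibitor, with 3, and the second catalytic subunit gene PPP3CB, the calmodulin gene CALM2 and the transcription factor gene NFAT5 with 1 each. All 6 of these sites had the deletion in every tag, over 22 to 145 tags. NFAT5 was listed by family name and is not an established calcineurin target. The listed NFATC1, NFATC2, NFATC3 and NFATC4 held no site. Of 12 immunoglobulin adhesion molecule genes 1 held a site, CADM2, with 275 of 275 tags deleted. The nearest relative of NCAM2 in that list, NCAM1, held none.

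Among 21 ephrins and Eph receptors 2 held sites, or 9.52%, near the 10.1% of all protein-coding genes. Both were receptors of the A class, and a link to EFNA5 was not tested. EPHA6 held 5, with shares of 97.1% to 100%, and EPHA3 held 4, with shares of 91.1% to 100%. All 9 lay on the strand of the gene, and both genes are long, at 947 and 374.5 kb. No other ephrin held a site.

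Of the 5 genes of the glutamate carboxypeptidase and transferrin receptor family, 3 held 1 site each: FOLH1 (22 of 22 tags deleted), the transferrin receptor gene TFRC (87 of 87) and TFR2 (166 of 166). FOLH1 has near-identical copies, so its site is uncertain. Of 13 mitochondrial peptidase genes 5 held a site. IMMP1L, the partner subunit of IMMP2L, held 2 with all of 40 and 110 tags deleted, and the rhomboid protease gene PARL held 2 with all of 191 and 61. YME1L1, AFG3L2 and LONP1, which encode proteases of the inner membrane and matrix, held 1 each, with all of 54, 21 and 117 tags deleted. Over the 5 lists 15 of 68 genes, or 22.1%, held a site. Gene length was not matched here, and median lengths ran between 31.7 kb for the ephrins and Eph receptors and 211.3 kb for the adhesion molecules, against 24.5 kb for all protein-coding genes.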

How the data were processed

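The authors deposited 1 list of deletion sites, pooled over 2 libraries, with a whole-number count of deleted tags per position. The name of each position gives the tags that cover it and an index number. The counts were used as deposited, without normalization. Build hg38 and the tools BWA 0.7.17, cutadapt, SAMtools and UMI-tools are listed per the submitters' processing notes. The sources used here give neither their roles nor the version of the site caller. The 10 percent false discovery rate is in the deposited list's name. Depth per library is unknown, and intervals cover counting error only, since tags of 1 site are not independent evidence of contact.

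Sites on either strand were assigned to 58989 RefSeq gene bodies of GRCh38.p14, whose primary chromosomes share coordinates with hg38. Coordinates are 1-based. Gene strand and starts came from RefSeq's promoter table. No exon annotation or genome sequence was used, so introns, exons and the deleted base are not reported. Named genes were the 5 members, genes overlapping their sites, the protein-coding genes nearest in length, those with 5 or more sites, and family list members with a site. Some genes that this rule picks are not reported here. Genes holding sites beside the members, and some others inside them, were named after their values were seen. Members and lists were chosen with earlier results of these data known. No test was run, because the genes were chosen by site number and sites of 1 gene are no replicates. The 2 labelled libraries are not said to come from separate cultures. Intervals are exact Clopper-Pearson or Poisson intervals at 95%. Assignment was tested on simulated data. Alternatives covered deleted tags, merging, share, strand, overlapping genes and the denominator. Python 3.11.15, numpy 2.4.6, pandas 2.3.3, scipy 1.17.1 and matplotlib 3.10.9 were used.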

Additional observations from a re-analysis of the deposited data

How the results depend on the processing

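Merging sites within 50 nt and keeping the more frequent strand of each gene removed none of the 37 sites. Leaving out the 2 sites in another annotated gene left 35, at 1.02 per 100 kb, with a median distance of 42.4 kb. The share of complete sites was then 68.6% and that of deleted tags 97.2%, against 67.6% and 97.3% over all 37 sites. With more deleted tags than the list's median, 22 sites remained, at 0.641 per 100 kb, with a median distance of 79.1 kb and a deleted share of 99.0% of tags; PPP3CA then had 3 sites, NCAM2 6, NAALADL2 5, and EFNA5 and IMMP2L 4 each. PPP3CA thus loses its lead under that setting, which removes lightly covered sites by construction. A deleted share under 0.9 left 1 site, in IMMP2L, at 0.0291 per 100 kb, with 22.8% of tags deleted and 0% of sites complete, and no distance could be computed. Over the distance between the first and last site instead of the gene body, the density was 1.66 per 100 kb against 1.08. Without the IMMP2L site under 90%, a setting added once the values were known, the share of tags was 99.1% against 97.3%. Counting sites and length from the listed starts, added at the same time, gave 1.22 per 100 kb. That setting left out the 2 NCAM2 sites before its listed start, and PPP3CA, which has none, kept its whole body. The deleted share of IMMP2L was 86.4% without its 2 sites in other genes, 87.5% without its best covered site, 99.1% above that median and 99.2% without its site under 90%, and that of PPP3CA 99.2% without its best covered site. No paired analysis was possible because both libraries were pooled in the deposited list and no comparison between groups exists. For the same reason no library could be left out.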
